A study of Homo sapiens with 16 samples.

Results

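RNA of CAL51 cells kept for 24 h in DMSO, the solvent in which a drug is given, was compared with RNA of CAL51 cells kept for 6 h in DMSO. CAL51 is an established human line of triple-negative breast cancer, a tumour class defined by the lack of oestrogen receptor, progesterone receptor and ERBB2 amplification. The 2 libraries titled as DMSO at 24 h and the 2 titled as DMSO at 6 h were chosen by their titles, 4 of 16 libraries in all. The other 12 libraries came from CAL51 cells kept for 24 h or 6 h with CC-671, an inhibitor of the spindle checkpoint kinase TTK and the splicing kinase CLK2, at 3 µM or 10 µM, with 3 libraries for each dose and time. All cells were at passage 10 and grew in DMEM with fetal bovine serum. The comparison therefore asks how the RNA of this 1 line changes with time in culture when no drug is present, which is the baseline that a drug effect at either time is read against. The labels call the 2 libraries of each DMSO group biological replicates. The p-values rest on the spread between libraries of the same group, estimated over all 6 groups with the 12 treated libraries included. The labels give neither seeding density nor medium changes, so hours in DMSO, age of the medium and cell density cannot be told apart.

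As background, cells in a dish use up nutrients, lipids and growth factors from the medium and come to lie closer together as the hours pass. Cholesterol and fatty acid synthesis is run by the SREBP transcription factors, which are held in the endoplasmic reticulum by INSIG proteins when sterols are plentiful and are released when they are scarce. YAP, the co-activator of the TEAD factors, and MRTF, the co-activator of SRF, respond to cell density, spreading and actin tension, and switch on genes of the matrix and of the cytoskeleton. FOXO factors move into the nucleus when growth factor signalling falls, while ERK signalling switches on the immediate early genes and its own feedback inhibitors.

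In the 24 h DMSO libraries, 115988525 and 104609173 read pairs were counted at genes, against 123789361 and 120703504 in the 6 h DMSO libraries. Mitochondrial genes took 2.155 and 2.838% of these pairs at 24 h, and 2.608 and 2.672% at 6 h. Pairs outside annotated exons made up 4.257 and 4.593% of assignable pairs at 24 h, and 4.383 and 4.76% at 6 h, so neither measure separated the times. The markers were those of a line with both epithelial and mesenchymal genes and little hormone receptor RNA. The 5 mesenchymal markers (FN1, VIM, ZEB1, TWIST1, CDH2) summed to 2400 and 2440 CPM at 24 h and 1770 and 1990 CPM at 6 h. FN1 made up most of this sum, with 1990 and 2040 CPM at 24 h and 1360 and 1580 CPM at 6 h. ZEB1 and CDH2 were called higher too, TWIST1 was not called and VIM was called lower (log2 -0.1). The ZEB1 call was lost in 3 of the fits with 1 DMSO library left out. It was also lost on removal of the length trend described below (log2 0.08). The CDH2 call was lost without 24 h replicate 1 (log2 0.14). The 7 epithelial markers summed to 1640 and 1600 CPM at 24 h and 1810 and 1830 CPM at 6 h. Among the epithelial ones KRT7 had 28 to 59 and GATA3 419 to 528 read pairs per library. EPCAM stood at 301 and 291 CPM (read pairs of the gene per 1e6 pairs counted, with TMM scaling) at 24 h and at 291 and 297 CPM at 6 h, whereas ESR1 had 1 to 5 and PGR 0 to 4 read pairs per library. Of 10 leukocyte markers, CD3E, HBB and NKG7 had no count in any DMSO library, and the 6 tested ones included 1 that was called, PTPRC, at 13.1 and 12.3 CPM at 24 h and 9.98 and 9.88 CPM at 6 h. The summed level of the leukocyte list was 13.9 and 13.4 CPM at 24 h, and 10.9 and 10.8 CPM at 6 h. Of 7 endothelial markers 4 were tested and CDH5 was called, at 16.9 and 16.5 CPM at 24 h and 10.4 and 9.22 CPM at 6 h. The endothelial sum was 20 and 19.6 CPM at 24 h, against 13.6 and 12.7 CPM at 6 h. The fibroblast sum was 90.5 and 91.7 CPM at 24 h, against 73.2 and 67.2 CPM at 6 h, with all 4 tested members (PDGFRA, PDGFRB, COL1A1, LUM) called higher, LUM in the fit of all libraries but in no leave-out (adjusted p = 0.11 to 0.21) and not with DESeq2 (0.069), while DCN, FAP and DPT had 0 to 3 pairs. The part of other cells in these changes was not tested, and in bulk RNA fewer cells of a type cannot be told apart from less RNA per cell. The adipocyte sum lay at 0.116 and 0.108 CPM at 24 h and 0.142 and 0.086 CPM at 6 h.

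A gene was called when its adjusted p was under 0.05 in edgeR's quasi-likelihood test, fitted to all 16 libraries and adjusted over all 22007 genes tested. Of these genes 4522 changed between 24 h and 6 h in DMSO (20.5%): 2421 were higher at 24 h (11.0%) and 2101 were lower (9.55%). All 4522 called genes had no overlap between the times, as had 59.4% of all tested genes. The lack of overlap given for called genes below therefore describes their levels and adds nothing to the call. Without 6 h replicate 1 the count of calls was 2727, without 24 h replicate 1 it was 2638 and without 24 h replicate 2 it was 2604. The changes were small. The median absolute log2 fold change was 0.21 among the called genes and 0.14 among all tested genes, and 88.8% of the called genes changed by less than 0.5 on the log2 scale. At least 2-fold changes were called for 54 genes that were higher (0.245% of those tested) and 50 that were lower (0.227%). Against these 104, the fit without 24 h replicate 1 called 61 genes at that size and DESeq2 called 21.

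**Figure D1:**
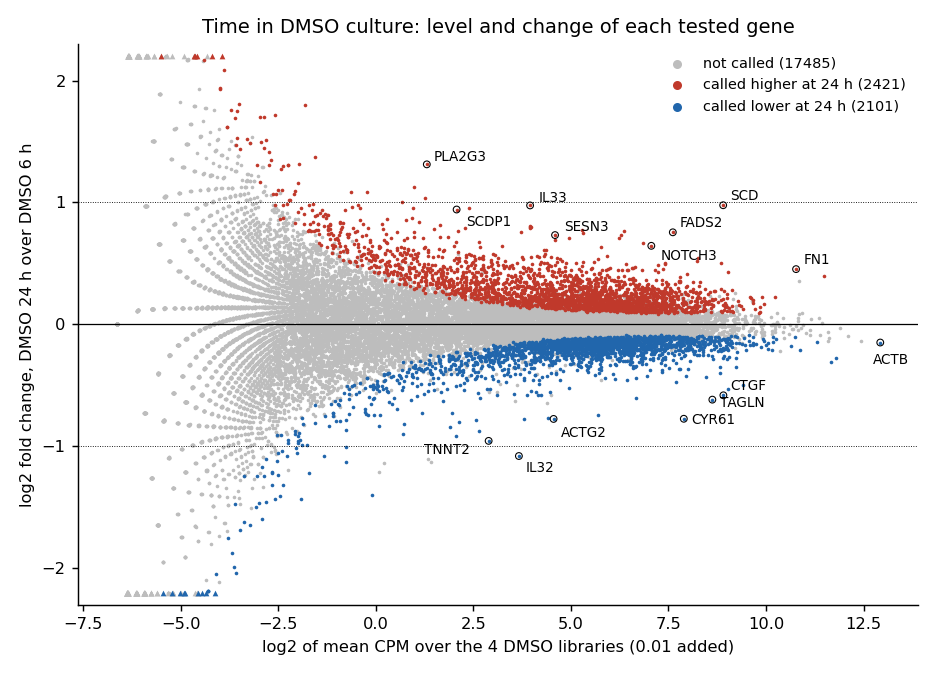
Each point is 1 of the 22007 tested genes, with its mean level in the 4 DMSO libraries on the x axis (log2 CPM) and its change in DMSO, 24 h over 6 h, on the y axis (log2). Red and blue points are the 2421 genes called higher and the 2101 called lower, dotted lines mark 2-fold changes, and triangles at the edge stand for 126 genes beyond 2.2; among the labelled genes PLA2G3 stands highest at 1.31 and IL32 lowest at -1.08, while SCD reaches 0.98 at a far higher level.

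Lipid synthesis held the broadest rise of the 37 lists. Of 20 enzymes of cholesterol synthesis, 17 were called higher at 24 h and 0 lower, with a median log2 fold change of 0.29 over the list, against 0.0 over all genes tested. Of 16 genes of fatty acid synthesis and desaturation, 13 were called higher and 0 lower (median 0.30), and of 15 genes of sterol uptake and control, 8 were called higher and 1 lower (median 0.35). With 1 DMSO library left out, 14 to 15, 12 to 13 and 6 to 8 were called higher.

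SCD, the desaturase that makes oleate from stearate, stood at 628 and 640 CPM at 24 h, against 327 and 317 CPM at 6 h. The times did not overlap, and the change was 1.97-fold (log2 0.98 ± 0.04 SE, adjusted p = 2.5e-15). FADS2, the first desaturase of polyunsaturated fatty acids, stood at 243 and 248 CPM at 24 h, against 149 and 142 CPM at 6 h (1.69-fold). The change of FADS2 was called with an adjusted p of 4.5e-14. ACACA, whose product makes the malonyl-CoA from which fatty acids are built, had 176 and 175 CPM at 24 h and 120 and 130 CPM at 6 h. Its mitochondrial relative ACACB had 7.73 and 8.15 CPM at 24 h and 5.97 and 5.67 CPM at 6 h. LPIN1, a phosphatidate phosphatase of glyceride synthesis, had 15.9 and 17.2 CPM at 24 h and 12.2 and 12.2 CPM at 6 h. These 3 genes rose by 0.49 ± 0.05, 0.45 ± 0.07 and 0.44 ± 0.05 on the log2 scale, and none of them overlapped between the times. The 3 genes of this list that were not called, ELOVL1, ME1 and SCD5, had log2 fold changes from -0.02 to 0.11.

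Along the cholesterol pathway the rises ran from the first steps to the last. HMGCS1, which condenses acetyl units into HMG-CoA, had 196 and 201 CPM at 24 h and 137 and 143 CPM at 6 h. FDFT1, which commits the pathway to sterols by making squalene, had 164 and 163 CPM at 24 h and 120 and 120 CPM at 6 h. Both rose without overlap, by 0.50 ± 0.04 and 0.44 ± 0.04 on the log2 scale. Downstream, LSS, which closes the sterol rings, had 110 and 112 CPM at 24 h and 82.0 and 79.0 CPM at 6 h. MSMO1, a sterol methyl oxidase, had 102 and 102 CPM at 24 h and 73.8 and 75.6 CPM at 6 h. DHCR7, which forms cholesterol in the last step of the pathway, had 116 and 116 CPM at 24 h and 84.4 and 82.6 CPM at 6 h. These rises were of like size, at 0.46 ± 0.03, 0.45 ± 0.04 and 0.47 ± 0.03 on the log2 scale, with adjusted p from 1.8e-10 to 7.9e-09. The 3 members not called, PMVK, FDPS and EBP, had log2 fold changes of 0.04 to 0.08.

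Most called genes of uptake and control were higher as well. SREBF1, which encodes an SREBP, had 93.1 and 94.5 CPM at 24 h and 72.5 and 69.9 CPM at 6 h (log2 0.40 ± 0.04). INSIG1, the sterol-dependent anchor of SREBP, had 72.7 and 73.3 CPM at 24 h and 49.8 and 49 CPM at 6 h (0.56 ± 0.05). Both were called, with adjusted p of 3.5e-08 and 2.1e-09, and did not overlap between the times. STARD4, a cholesterol carrier, rose by 0.43 ± 0.10 (adjusted p = 0.0066), a call lost without 6 h replicate 1 (0.074) or 24 h replicate 2 (0.055). ABCG1, a sterol exporter of low level, had 0.507 and 0.561 CPM at 24 h and 0.325 and 0.31 CPM at 6 h (adjusted p = 0.015). That call was lost without either 6 h replicate (0.068 and 0.079) and without 24 h replicate 2 (0.11). SCARB1, a receptor for high-density lipoprotein, went the other way, with 149 and 150 CPM at 24 h and 164 and 162 CPM at 6 h (log2 -0.13 ± 0.03), and passed the test only with all libraries or without 6 h replicate 2 (adjusted p = 0.051 to 0.072 in the other 3 leave-outs).

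**Figure D2:**
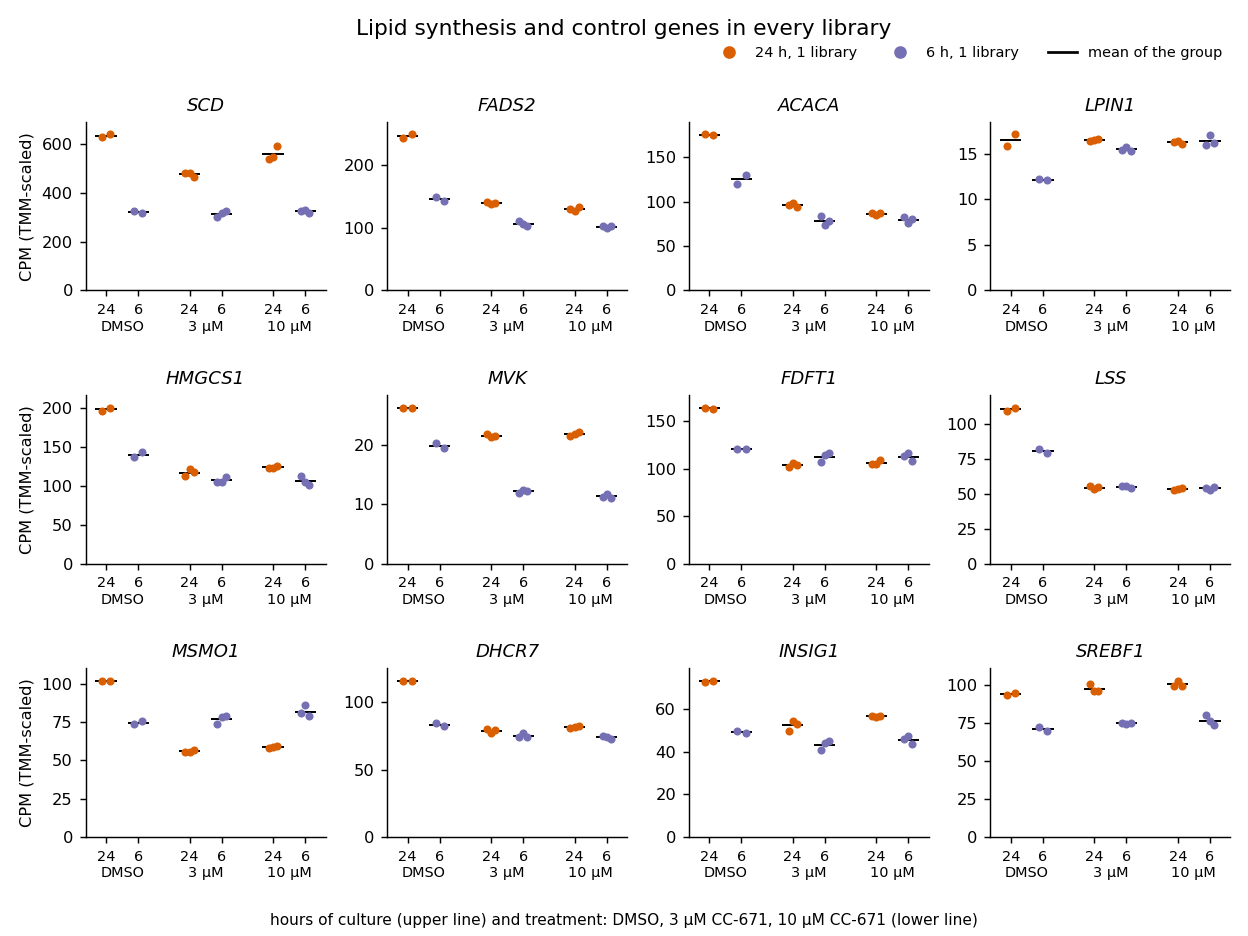
Level of 12 lipid genes in every library (y axis, CPM from 0), with the 24 h libraries (orange) left of the 6 h libraries (violet) for DMSO, 3 µM and 10 µM CC-671; points are libraries and black lines group means. In DMSO each gene is higher at 24 h without overlap (SCD 628 and 640 CPM, against 327 and 317 CPM), whereas with CC-671 MSMO1 and FDFT1 average lower at 24 h than at 6 h.

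Most cytoskeletal genes tested were lower at 24 h. Of 25 actin and SRF targets, 19 were called lower at 24 h and 0 higher, with a median log2 fold change of -0.17, and 16 to 18 were called lower in the leave-outs. Of 22 YAP and TEAD targets and Hippo pathway genes, 12 were called lower and 3 higher (median -0.17). The 12 became 8 without either 6 h replicate and 7 without either 24 h replicate. The smooth muscle members led the first list. ACTG2, an actin of smooth muscle, had 17.5 and 17.2 CPM at 24 h and 29.9 and 29.4 CPM at 6 h, and TAGLN, the actin-bundling transgelin, had 315 and 308 CPM at 24 h and 487 and 468 CPM at 6 h. ACTA2, smooth muscle alpha-actin, had 172 and 175 CPM at 24 h and 246 and 235 CPM at 6 h. No library of these 3 genes crossed into the range of the other time, and the log2 changes were -0.78 ± 0.05, -0.62 ± 0.04 and -0.47 ± 0.04, with adjusted p from 3.8e-11 to 1.5e-09. TAGLN2 fell by 0.46 ± 0.04 and FHL2, a LIM protein that binds integrins and transcription factors, fell by 0.43 ± 0.05 on the log2 scale. The cytoplasmic actins changed little: ACTB had 7400 and 7380 CPM at 24 h and 8240 and 8140 CPM at 6 h (log2 -0.15 ± 0.03, adjusted p = 0.00074). The 6 members not called (CNN1, CNN3, FLNA, VCL, MYH9, LMOD1) had log2 fold changes from -0.09 to 0.18.

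A CArG box, the site bound by SRF, was found in the promoter windows of 7 of the 22 members of the actin and SRF list that had a window (31.8%), against 351 of all 27305 RefSeq promoters of the same length (1.29%); a window runs from 250 bases before to 50 bases after the start of the gene. The box was added to this list after the lists were drawn up. It reads the same on both strands, and a match describes letters and no binding. The 7 members with a box had a median log2 fold change of -0.16 and 6 of them were called lower, while the 15 members without had a median of -0.17 and 10 called lower, so the box did not set the falling members apart. The 6 called members with a box are shown, as the falling genes that carry the site of the factor the list is named for. Each sequence is from RefSeq (GRCh38.p14), 5′ to 3′ on the strand of the gene, with the box in capitals: ACTG2 at chr2:73892848-73892994 (plus strand, 2 boxes ending 101 and 64 bases before the start), FHL2 at chr2:105438555-105438664 (minus strand), CNN2, a calponin, at chr19:1026469-1026578 (plus strand), TPM4, a tropomyosin, at chr19:16067315-16067424 (plus strand), ACTG1, cytoplasmic gamma-actin, at chr17:81512834-81512943 (minus strand), and SRF itself at chr6:43171189-43171268 (plus strand, 2 boxes).
ACTG2: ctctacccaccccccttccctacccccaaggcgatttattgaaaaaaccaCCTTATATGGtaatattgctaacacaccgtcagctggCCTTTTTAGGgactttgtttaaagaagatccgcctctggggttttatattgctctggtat
FHL2: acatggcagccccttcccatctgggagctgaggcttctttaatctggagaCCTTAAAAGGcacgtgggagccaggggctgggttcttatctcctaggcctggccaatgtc
CNN2: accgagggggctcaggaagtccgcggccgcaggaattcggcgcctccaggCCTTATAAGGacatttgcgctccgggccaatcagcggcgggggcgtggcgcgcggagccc
TPM4: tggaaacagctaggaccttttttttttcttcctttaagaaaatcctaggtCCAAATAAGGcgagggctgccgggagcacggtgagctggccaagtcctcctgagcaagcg
ACTG1: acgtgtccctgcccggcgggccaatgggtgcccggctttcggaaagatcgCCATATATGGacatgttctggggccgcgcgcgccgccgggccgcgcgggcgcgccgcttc
SRF: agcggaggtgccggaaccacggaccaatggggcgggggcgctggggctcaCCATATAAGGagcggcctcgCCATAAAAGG

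In the order shown, these 6 genes had log2 fold changes of -0.78, -0.43, -0.20, -0.16, -0.14 and -0.13, so ACTG2, with 2 boxes, fell most and SRF, also with 2, fell least. For the sterol lists 2 motifs were looked up on either strand. The core of the sterol regulatory element, TCACNCCAC, was in 0 of 15 windows of the cholesterol list and 0 of 15 of the fatty acid list. It was in 1 of 11 of the uptake list (SREBF2), against 1.15% of all promoters. The E-box CACGTG was in 2 of 15 cholesterol windows (13.3%), 1 of 15 fatty acid windows (6.67%) and 3 of 11 uptake windows (27.3%), against 7.43% of all promoters. Presence or absence of these letters in the window says nothing of SREBP binding.

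Among the YAP and TEAD targets, the secreted CYR61 had 178 and 173 CPM at 24 h and 291 and 308 CPM at 6 h, and its relative CTGF had 380 and 390 CPM at 24 h and 553 and 598 CPM at 6 h. Both fell without overlap, by 0.77 ± 0.14 and 0.58 ± 0.09 on the log2 scale (adjusted p = 0.0024 and 0.00052). AXL, a receptor tyrosine kinase, had 9.34 and 9.31 CPM at 24 h and 14 and 13.7 CPM at 6 h, and AMOTL2, an angiomotin that holds YAP at cell junctions, had 140 and 140 CPM at 24 h and 183 and 184 CPM at 6 h. These 2 genes fell by 0.57 ± 0.07 and 0.39 ± 0.04. F3, tissue factor, fell by 0.37 ± 0.11, but its adjusted p of 0.035 became 0.11 to 0.15 without any 1 of the DMSO libraries. Genes of the Hippo pathway itself went both ways: TEAD1, TEAD4, LATS2, NF2 and WWC1 were among the 12 called lower, and the 3 called higher were YAP1, LATS1 and AMOTL1. YAP1 had 340 and 335 CPM at 24 h and 278 and 287 CPM at 6 h (log2 0.26 ± 0.03). The kinase LATS1, which phosphorylates YAP, rose by 0.18 ± 0.05, a call lost without 6 h replicate 1 (adjusted p = 0.14). AMOTL1 rose by 0.11 ± 0.04, a call lost in 3 leave-outs (0.063 to 0.31) and on removal of the length trend described below.

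**Figure D3:**
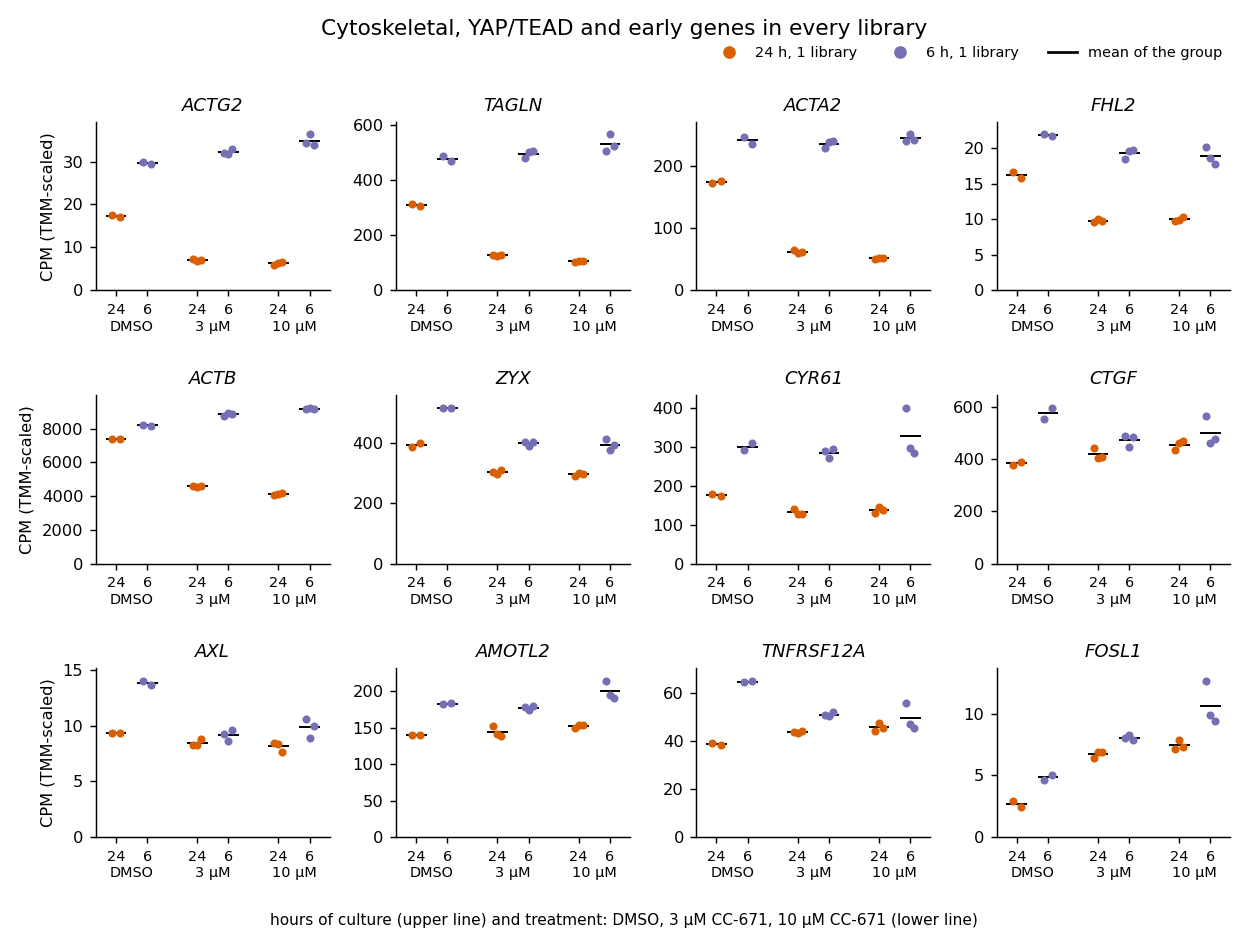
Level of 12 cytoskeletal, YAP/TEAD and early genes in every library (y axis, CPM from 0), with the 24 h libraries (orange) left of the 6 h libraries (violet) for DMSO, 3 µM and 10 µM CC-671; points are libraries and black lines group means. All 12 are lower at 24 h in DMSO without overlap, and ACTG2, TAGLN, ACTA2, FHL2 and ACTB fall further with CC-671.

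Immediate early genes gave a fall whose calls rest on how the spread is estimated. Of 26 members, 18 had both 24 h libraries below both 6 h libraries and 4 above, where 59.4% of all tested genes did not overlap in either direction. The fit of all 16 libraries called 5 lower and 2 higher (median -0.23), whereas a fit of the DMSO libraries alone called 17 lower and 2 higher. The counts of 5 became 2 without 6 h replicate 2 or 24 h replicate 1. FOSL1, a subunit of AP-1, had 2.89 and 2.46 CPM at 24 h and 4.61 and 5.03 CPM at 6 h (log2 -0.85 ± 0.13, adjusted p = 0.00014). KLF2, a Krüppel-like factor, had 6.93 and 6.63 CPM at 24 h and 9.44 and 8.70 CPM at 6 h (-0.42 ± 0.08). NR4A2, an orphan nuclear receptor, fell by 0.53 ± 0.13, a call lost without 6 h replicate 2 (adjusted p = 0.056) or 24 h replicate 1 (0.055). MYC, which drives growth and ribosome genes, had 45.8 and 46.2 CPM at 24 h and 62.9 and 63.3 CPM at 6 h. The times were well apart, yet the log2 change of -0.46 ± 0.15 was not called in the fit of all libraries (adjusted p = 0.057), was called with DESeq2 (0.013) and was called from the DMSO libraries alone (2.1e-06), with 0.2 as the highest value over the alternatives. FOS, looked up after the values were seen, had 10.7 and 11 CPM at 24 h and 10.2 and 12.7 CPM at 6 h, which overlap. Against the list, BTG2, an antiproliferative factor, rose by 0.24 ± 0.05 and IER3, an early gene of stress and survival, by 0.20 ± 0.04. The libraries of the 10 µM, 6 h group differed most among themselves, where the chi-square statistic of replicate pairs, divided by the number of genes, ran to 19.1, against 7.97 in the 24 h and 8.33 in the 6 h DMSO libraries; its part in the wider spread was not tested.

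Feedback genes of ERK split. Of 20 members, 7 were called higher (5 without any 1 DMSO library) and 5 lower (3 without any 1), with a median of -0.04. ETV5, an ETS factor, had 196 and 192 CPM at 24 h and 156 and 155 CPM at 6 h, and SPRY4, a Sprouty inhibitor of the pathway, had 169 and 176 CPM at 24 h and 140 and 149 CPM at 6 h. They rose by 0.31 ± 0.03 and 0.26 ± 0.04. The phosphatase DUSP2, in contrast, had 0.605 and 0.689 CPM at 24 h and 1.13 and 1.04 CPM at 6 h (log2 -0.75 ± 0.15), HBEGF, a ligand of the EGF receptor, fell by 0.37 ± 0.09 and the receptor EPHA2 by 0.18 ± 0.04. DUSP1 (-0.58 ± 0.15) and DUSP7 (-0.14 ± 0.04) were called lower only with all 4 DMSO libraries, with adjusted p of 0.067 to 0.11 and of 0.06 to 0.10 in the leave-outs.

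Of 22 cytokine and NF-kB feedback genes, 3 were called lower and 1 higher (median -0.25), where 9.55% of all tested genes were lower and 11.0% higher. A fit of the DMSO libraries alone called 9 lower. IL32, a cytokine of epithelial and immune cells, had the largest fall among genes of at least 1 log2 CPM, with 8.29 and 8.0 CPM at 24 h and 17.0 and 17.4 CPM at 6 h (log2 -1.08 ± 0.06, adjusted p = 4.5e-12). NFKBIE, an inhibitor of NF-kB, fell by 0.25 ± 0.05, and CCL20, a chemokine, by 0.58 ± 0.18, just inside the threshold and lost without any 1 DMSO library (adjusted p = 0.076 to 0.23). IL33, a nuclear alarmin, went the other way, with 21.5 and 19.5 CPM at 24 h and 11.1 and 9.74 CPM at 6 h (0.98 ± 0.10).

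Genes of ribosome production were lower at 24 h. Of 30 nucleolar factors and RNA polymerase I genes, 18 were called lower and 0 higher (median -0.15), and 14 to 17 without any 1 DMSO library. NOP16, an assembly factor of the large subunit, had 44.6 and 46.8 CPM at 24 h and 60.3 and 60.2 CPM at 6 h (log2 -0.40 ± 0.04). RRP9, a component of the U3 processing complex, fell by 0.31 ± 0.04, LYAR, a nucleolar factor, by 0.25 ± 0.04 and the pseudouridine synthase DKC1 by 0.23 ± 0.03. BOP1, which acts in processing of the large subunit RNA, fell by 0.29 ± 0.07, a call lost without 6 h replicate 1 (adjusted p = 0.07) or 24 h replicate 2 (0.088). Of 41 cytosolic ribosomal proteins, 26 were called lower and 0 higher, also with a median of -0.15. That count hung on single libraries: it was 9 without 6 h replicate 1, 16 without 24 h replicate 1 and 12 without 24 h replicate 2. RPS16 had 363 and 357 CPM at 24 h and 444 and 418 CPM at 6 h. Its times did not overlap, with a log2 change of -0.26 ± 0.04, and RPL38 and RPL35 fell by 0.24 ± 0.05 and 0.21 ± 0.05. RPS19 also fell by 0.21 ± 0.06, a call lost without 6 h replicate 1 (adjusted p = 0.11) or 24 h replicate 2 (0.095). Ribosomal protein genes have many pseudogenes. Pairs without a unique alignment were counted at no gene (10.34 to 11.13% of pairs in the DMSO libraries), so pairs shared with a pseudogene may be missing here.

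Cell cycle genes moved by less. Shares of calls over all tested genes were 11.0% higher and 9.55% lower. Of 35 genes of mitosis, 5 were called higher and 5 lower (median 0.00), of 24 genes of G1 and S phase control 2 higher and 4 lower (median 0.01), of 37 replication genes 1 higher and 8 lower (median -0.04), and of 18 histone genes 0 higher and 2 lower. None of the called members of the first 3 lists changed by more than 0.24 on the log2 scale, and each of these counts moved by over 1.5 times with 1 DMSO library left out, the 8 replication genes to 4 without either 6 h replicate and to 0 without 24 h replicate 2. MKI67, the proliferation antigen, had 474 and 488 CPM at 24 h and 383 and 437 CPM at 6 h, and its change of 0.23 ± 0.10 was not called (adjusted p = 0.14). TTK had 103 and 101 CPM at 24 h and 102 and 100 CPM at 6 h (log2 0.01 ± 0.05), and CLK2 had 52.2 and 55.6 CPM at 24 h and 51.8 and 52.1 CPM at 6 h (0.05 ± 0.07). Neither kinase that CC-671 inhibits was called (adjusted p = 0.90 and 0.65). CDK1, the mitotic kinase, fell by 0.18 ± 0.04 and CENPA, the histone of centromeres, by 0.18 ± 0.04. CCND1, cyclin D1, fell by 0.14 ± 0.03, a call lost without 24 h replicate 2 (adjusted p = 0.071), and CCND3 fell by 0.17 ± 0.04. RBL2, the pocket protein p130 of resting cells, had 64.8 and 64.7 CPM at 24 h and 54.6 and 55.3 CPM at 6 h and rose by 0.24 ± 0.05. CDKN1B, the inhibitor p27, had 99.9 and 96.8 CPM at 24 h and 101 and 101 CPM at 6 h, a change of -0.04 ± 0.03 that was not called. CDKN1A, the inhibitor p21, fell by 0.17 ± 0.05, a call lost without 6 h replicate 2 (0.091) or 24 h replicate 1 (0.071).

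All called members among FOXO targets and genes of resting cells were higher at 24 h. Of 22 members, 12 were called higher and 0 lower (median 0.16), and 10 without any 1 DMSO library. SESN3, a sestrin that restrains mTORC1, had 31.3 and 29 CPM at 24 h and 16.9 and 19.4 CPM at 6 h (log2 0.73 ± 0.06, adjusted p = 2.1e-09). PDK4, which turns off pyruvate dehydrogenase, had 29.4 and 26.7 CPM at 24 h and 20.4 and 19.6 CPM at 6 h (0.49 ± 0.05). TSC22D3, which also responds to glucocorticoids, had 44.2 and 43.4 CPM at 24 h and 32.9 and 31.8 CPM at 6 h (0.44 ± 0.07). All 3 genes were apart between the times, and ERBB3, a receptor that FOXO factors are known to raise, followed with 0.43 ± 0.06. SEPP1, selenoprotein P, rose by 0.52 ± 0.18 at under 1 CPM, a call lost without 6 h replicate 1 or either 24 h replicate (adjusted p = 0.061 to 0.33). Of 30 p53 targets, by contrast, 4 were called higher and 6 lower (median -0.02), where 11.0% of all tested genes were higher and 9.55% lower. TP53INP1, which is in both lists, rose by 0.38 ± 0.04 and the repair factor DDB2 by 0.30 ± 0.05, while PHLDA3, an inhibitor of AKT, fell by 0.26 ± 0.06. GADD45A, a stress gene, fell by 0.55 ± 0.16, a call lost without any 1 DMSO library (0.11 to 0.16). SPATA18, a mitochondrial quality gene, rose by 0.21 ± 0.08, a call lost in 3 leave-outs (0.11 to 0.41). The 6 p53 targets called lower were 2 to 4 in the leave-outs, lowest without 24 h replicate 1.

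Of 16 genes of the Notch pathway, 6 were called higher and 0 lower (median 0.22), with NOTCH1, HES1, HES4 and NRARP among the 10 not called (log2 -0.17 to 0.66), and 5 without any 1 DMSO library. NOTCH3, a receptor, had 165 and 160 CPM at 24 h and 109 and 99.5 CPM at 6 h (log2 0.64 ± 0.04, adjusted p = 3.1e-11). HEYL, a transcriptional repressor that Notch switches on, had 6.09 and 6.18 CPM at 24 h and 3.60 and 3.49 CPM at 6 h (0.79 ± 0.08), and its relative HEY2 had 3.56 and 3.66 CPM at 24 h and 2.62 and 2.26 CPM at 6 h (0.56 ± 0.09). Neither target nor receptor overlapped between the times. NOTCH2 rose by 0.26 ± 0.04, and HEY1 by 0.25 ± 0.09, a call lost without any 1 DMSO library (adjusted p = 0.07 to 0.26). Of 14 Wnt targets and inhibitors, 5 were called higher and 0 lower (median 0.11), and 3 without 6 h replicate 2 or either 24 h replicate. LGR5, a Wnt target and receptor for R-spondins, had 24.3 and 23.4 CPM at 24 h and 16.5 and 15.8 CPM at 6 h (0.56 ± 0.05), and WNT5A, a ligand that acts largely without beta-catenin, rose by 0.16 ± 0.04. The receptor FZD7 rose by 0.15 ± 0.04, a call lost without 24 h replicate 1 (0.061), the inhibitor DKK1 by 0.64 ± 0.19, lost without 6 h replicate 2 (0.14) or 24 h replicate 2 (0.19), and the factor TCF7L2 by 0.13 ± 0.04, lost without any 1 DMSO library (0.062 to 0.29).

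Matrix genes moved in both directions. Of 37 matrix, protease and integrin genes, 13 were called higher and 6 lower (median 0.06), and the 13 became 8 without 24 h replicate 1. Collagen genes were among the rises: COL1A2, a chain of type I collagen, had 21.9 and 21.3 CPM at 24 h and 15.5 and 15.1 CPM at 6 h (log2 0.50 ± 0.05). FN1, fibronectin, had 1990 and 2040 CPM at 24 h and 1360 and 1580 CPM at 6 h (0.45 ± 0.10, adjusted p = 0.011), a call lost without 6 h replicate 1 (0.10) or 24 h replicate 2 (0.066) and not made from the DMSO libraries alone (0.056). ITGA2, an integrin of low level, rose by 0.59 ± 0.21, a call lost without 6 h replicate 1 or either 24 h replicate (0.10 to 0.31) and with DESeq2 (0.068). Against them, MMP1, the interstitial collagenase, had 0.578 and 0.443 CPM at 24 h and 1.43 and 1.27 CPM at 6 h (-1.40 ± 0.16). LAMB3 (-0.35 ± 0.10), a laminin chain of epithelia, and TIMP1 (-0.30 ± 0.05), a protease inhibitor, fell too, LAMB3 not without 24 h replicate 1 (0.094). THBS1, thrombospondin, had 557 and 566 CPM at 24 h and 750 and 832 CPM at 6 h (-0.49 ± 0.11), a call lost without 6 h replicate 2 or either 24 h replicate (0.059 to 0.073).

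Markers of cell identity did not shift one way. Of 21 epithelial and mesenchymal genes, 8 were called higher and 3 lower (median 0.15), and 3 to 4 were called higher in the leave-outs. CDH1, E-cadherin, had 45.2 and 44.6 CPM at 24 h and 34.7 and 38.4 CPM at 6 h (log2 0.30 ± 0.05), while the keratin KRT8 had 557 and 536 CPM at 24 h and 658 and 665 CPM at 6 h (-0.28 ± 0.03) and its partner KRT18 fell by 0.29 ± 0.03. On the mesenchymal side, SNAI2, a repressor of E-cadherin, rose by 0.31 ± 0.10, a call lost without 6 h replicate 2 (adjusted p = 0.18) or 24 h replicate 1 (0.23), and VIM, vimentin, fell by 0.10 ± 0.03, lost without 6 h replicate 2 or either 24 h replicate (0.069 to 0.44). The claudins CLDN7, at under 1 CPM, and CLDN4 were called higher by 0.60 ± 0.20 and 0.29 ± 0.10, CLDN7 not without replicate 2 of either time (0.26 and 0.30) and CLDN4 not without any 1 DMSO library (0.11 to 0.21). Of 20 genes of TGF-beta and BMP signalling, 7 were called higher and 3 lower (median 0.07), the 3 being 1 without 24 h replicate 2. BMP5, a ligand, had 7.39 and 7.56 CPM at 24 h and 5.44 and 5.46 CPM at 6 h (0.46 ± 0.09), and LTBP2 and LTBP1, which bind latent TGF-beta or its matrix, rose by 0.48 ± 0.10 and 0.23 ± 0.05. BMP4, by contrast, had 178 and 178 CPM at 24 h and 218 and 217 CPM at 6 h (-0.29 ± 0.03), and BMP2 (-0.23 ± 0.06) and TGFB1 (-0.13 ± 0.04) were called lower but not without 24 h replicate 2 (0.12 and 0.17), nor, for BMP2, without 6 h replicate 2 (0.11) and, for TGFB1, without 6 h replicate 1 (0.13). INHBA, a subunit of activins, rose by 0.61 ± 0.22 with all libraries and in no leave-out (0.052 to 0.29).

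Sugar metabolism and hypoxia targets moved in both directions, with 6 of 23 and 7 of 21 members called where 20.5% of all tested genes were. Of 23 glycolytic genes, 2 were called higher and 4 lower (median -0.04), the 4 being 2 without replicate 2 of either time. SLC2A3, a glucose transporter, had 27.9 and 26.1 CPM at 24 h and 20.2 and 20 CPM at 6 h (log2 0.43 ± 0.06), whereas PFKP, a phosphofructokinase, fell by 0.27 ± 0.04 and ENO1, enolase, by 0.21 ± 0.03. PFKFB4, a regulator of that kinase step, rose by 0.48 ± 0.10, lost without 24 h replicate 1 (adjusted p = 0.054), and LDHA, lactate dehydrogenase, fell by 0.14 ± 0.04, lost without replicate 2 of either time (0.075 and 0.11). Of 21 hypoxia targets, 5 were called higher and 2 lower (median 0.08), the 2 being ADM, a peptide hormone, with 24.8 and 25.8 CPM at 24 h and 36.8 and 35.7 CPM at 6 h (-0.52 ± 0.05), and VEGFA, the vascular growth factor (-0.30 ± 0.08), whose call was lost without either 6 h replicate or 24 h replicate 1 (0.063 to 0.10). BNIP3L, a mitophagy receptor, rose by 0.34 ± 0.04 and DDIT4, an inhibitor of mTORC1, by 0.25 ± 0.06. TXNIP, the glucose-responsive thioredoxin inhibitor, was the 1 member called of 6 MondoA targets (0.17 ± 0.06), in no leave-out (0.061 to 0.24). Of 30 nuclear genes of oxidative phosphorylation, 4 were called lower and 0 higher (median -0.08), 2 without 6 h replicate 1 or either 24 h replicate and 9 without 6 h replicate 2. CYC1, cytochrome c1, fell by 0.20 ± 0.03. Of the 13 mitochondrial genes of the chain, edgeR called 0, DESeq2 called 0 and 0 had an unadjusted p under 0.05, while 2 were called lower without 24 h replicate 2.

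Most members of the stress and amino acid lists were not called. Over all tested genes, 9.55% were called lower and 11.0% higher. Counts in the lists of amino acid transporters, endoplasmic reticulum chaperones and lysosome genes were too small to show a direction. Of 25 ATF4 targets, 7 were called lower and 2 higher (median -0.13), the 7 being 3 to 4 without any 1 DMSO library and 12 from the DMSO libraries alone. MTHFD2, a mitochondrial folate enzyme, had 206 and 198 CPM at 24 h and 235 and 242 CPM at 6 h (log2 -0.24 ± 0.05), and ATF5 fell by 0.19 ± 0.04, while PHGDH, the first enzyme of serine synthesis, rose by 0.16 ± 0.04, a call lost on removal of the length trend described below (adjusted p = 0.13). STC2, a stanniocalcin, and CHAC1, which degrades glutathione, fell by 0.55 ± 0.14 and 0.42 ± 0.12, in no leave-out (adjusted p = 0.065 to 0.081 and 0.087 to 0.14). Of 14 amino acid transporters, 3 were called lower and 2 higher (median -0.03). SLC7A5, the large neutral amino acid carrier, had 427 and 429 CPM at 24 h and 610 and 622 CPM at 6 h (-0.53 ± 0.04, adjusted p = 8.6e-10), and its heavy chain SLC3A2 had 212 and 210 CPM at 24 h and 279 and 285 CPM at 6 h (-0.42 ± 0.08). These partners fell together, while SLC43A1, another neutral carrier, rose by 0.34 ± 0.08. Of 19 NRF2 targets, 6 were called lower and 0 higher (median -0.10). FTH1, the heavy chain of ferritin, had 3250 and 3210 CPM at 24 h and 3900 and 3920 CPM at 6 h (-0.27 ± 0.04), SRXN1, sulfiredoxin, fell by 0.62 ± 0.13 and GCLM, of glutathione synthesis, by 0.30 ± 0.06. Of 16 heat shock genes, 6 were called lower and 0 higher (median -0.13), 3 without 6 h replicate 1 or 24 h replicate 2. HSPA8, the constitutive chaperone of the HSP70 family, had 2900 and 2860 CPM at 24 h and 3620 and 3510 CPM at 6 h (-0.30 ± 0.04), with HSPH1 (-0.20 ± 0.05) and DNAJA1 (-0.19 ± 0.04), which assist it. Of 18 chaperones of the endoplasmic reticulum 1 was called lower, of 27 lysosome and autophagy genes 1 higher and 1 lower, and of 9 genes of metal binding 1 higher and 3 lower, led by MT1M (-0.44 ± 0.07) and MT1G (-0.33 ± 0.08).

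Antiviral, clock and splicing genes complete the lists. Of 27 interferon-stimulated genes, 7 were called higher and 2 lower (median 0.16), and each leave-out called 3 higher, though not a fixed 3. IFIT1, which binds viral RNA caps, had 8.44 and 8.79 CPM at 24 h and 6.62 and 6.67 CPM at 6 h (log2 0.38 ± 0.08), and IFIT2 rose by 0.42 ± 0.10, a call lost without 6 h replicate 1 (adjusted p = 0.078). ISG15 fell by 0.33 ± 0.08, lost without 6 h replicate 1 (0.089) or 24 h replicate 2 (0.065), and the other fall, OASL, was lost without 6 h replicate 2 or either 24 h replicate (0.069 to 0.13). Of 13 HLA class I presentation genes, 5 were called lower and 0 higher (median -0.15), but 1 to 2 without any 1 DMSO library, HLA-E among them (-0.16 ± 0.04). Of 17 clock genes, 6 were called higher and 1 lower (median 0.09), the 6 being 3 without 6 h replicate 1 or 24 h replicate 1, and 4 without 24 h replicate 2. PER3, a period gene, had 15.8 and 16.7 CPM at 24 h and 11.3 and 11 CPM at 6 h (0.54 ± 0.06), and TEF, an output factor of the clock, rose by 0.38 ± 0.06. CRY1, a repressor of the clock, fell by 0.16 ± 0.04, lost without 24 h replicate 1 (0.063). Of 16 SR splicing factors and CLK kinases, 5 were called lower and 1 higher (median -0.07), the 5 being 3 without 6 h replicate 2 or 24 h replicate 1. TRA2A and TRA2B, factors that activate exons, fell by 0.27 ± 0.04 and 0.16 ± 0.04, and SRSF6 rose by 0.19 ± 0.04.

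**Figure D4:**
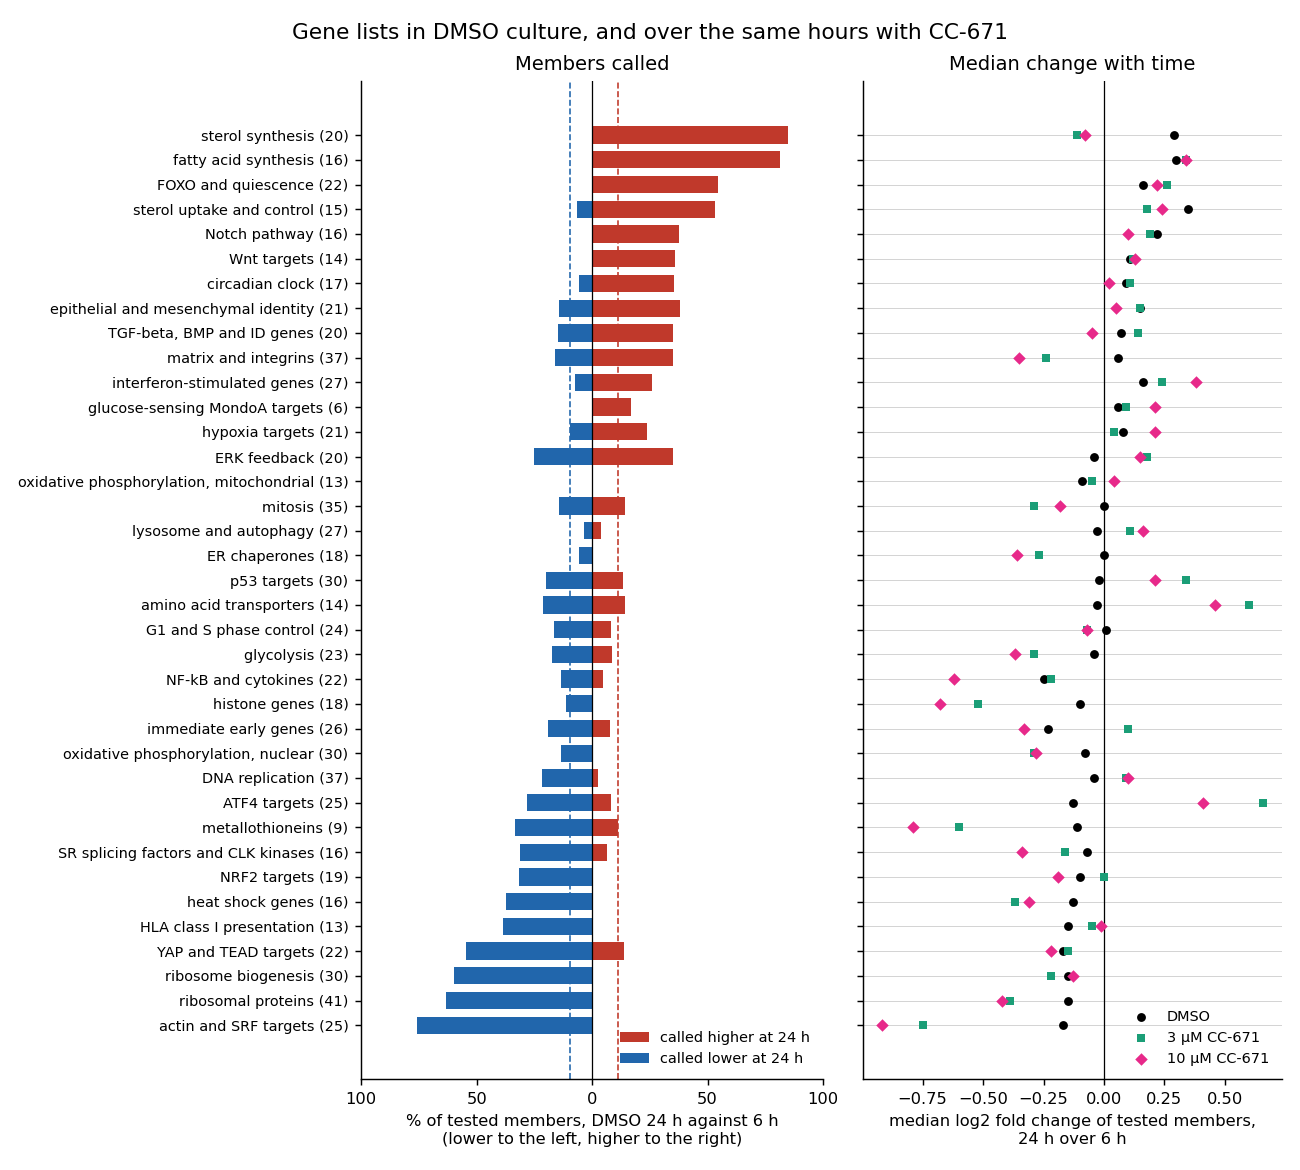
Left, the share of the tested members of each of 37 gene lists (number tested in brackets) called higher (red, to the right) or lower (blue, to the left) in DMSO at 24 h, with dashed lines at 11.0% and 9.55%, the shares of all tested genes; right, the median log2 fold change, 24 h over 6 h, of the same members in DMSO (circles), 3 µM (squares) and 10 µM CC-671 (diamonds). Sterol synthesis is at the top with 17 of 20 members higher in DMSO and is the list whose DMSO median of 0.29 stands beside medians of -0.11 and -0.08 with the drug, and actin and SRF targets are at the bottom with 19 of 25 lower.

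Several of the largest single changes lay outside the lists. Among called genes of at least 1 log2 CPM without overlap, the largest rise was that of PLA2G3, a secreted phospholipase A2, with 3.51 and 3.52 CPM at 24 h and 1.49 and 1.34 CPM at 6 h (log2 1.31 ± 0.12, adjusted p = 7.8e-09). The rise of SCDP1 (0.94 ± 0.08), a pseudogene of SCD, is uncertain, since the 2 share sequence. Pairs that align to both alike were counted at neither, and pairs of SCD may have been assigned to SCDP1. The other rises included CYSLTR1, a leukotriene receptor (0.84 ± 0.13), UNC5B, a netrin receptor (0.81 ± 0.06), FCGBP, a mucin-like secreted protein (0.80 ± 0.06), and MMRN2, an endothelial matrix protein (0.79 ± 0.06). WNK4, a kinase of ion transport, rose by 0.82 ± 0.10 and ADH1C, an alcohol dehydrogenase, by 0.80 ± 0.09. No call among these 8 genes changed under any alternative in which the gene was tested.

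On the falling side, IL32 was followed by TNNT2, a troponin of heart muscle, with 5.19 and 4.89 CPM at 24 h and 10.1 and 9.47 CPM at 6 h (log2 -0.96 ± 0.11). GAL, the neuropeptide galanin, had 2.76 and 2.97 CPM at 24 h and 5.36 and 5.43 CPM at 6 h (-0.91 ± 0.09), and EDN2, endothelin 2, had 4.57 and 4.19 CPM at 24 h and 7.65 and 8.42 CPM at 6 h (-0.87 ± 0.08). WNT7B, a Wnt ligand, had 9.64 and 11 CPM at 24 h and 16.9 and 18.5 CPM at 6 h (-0.78 ± 0.07). None of these genes overlapped between the times. PTGES, which makes prostaglandin E2, fell by 0.78 ± 0.08, GAD1, which makes the transmitter GABA, by 0.80 ± 0.09 and TNFRSF12A, the receptor of the cytokine TWEAK, by 0.74 ± 0.07. GADD45B, a stress gene of the GADD45 family, had 15.7 and 15.6 CPM at 24 h and 28.4 and 24.9 CPM at 6 h (-0.77 ± 0.13, adjusted p = 0.0017). All of these calls held in every alternative in which the gene was tested.

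The same hours in treated cells gave fold changes from other libraries, although the treated libraries also enter the spread, scaling and filter behind the DMSO calls. Between 24 h and 6 h, 14702 genes were called with 3 µM CC-671 (66.8%) and 15488 with 10 µM (70.4%), and the median absolute log2 fold changes were 0.36 and 0.40, against 0.14 in DMSO. Of the 2421 genes that rose in DMSO, 1501 also rose at 3 µM, which is 62.0% of the DMSO rises and 19.8% of the 3 µM rises, while 480 (19.8%) fell there. The background was 34.5% of all tested genes higher and 32.3% lower at 3 µM. At 10 µM, 1439 of the DMSO rises were higher (59.4%, background 35.4%; 18.5% of the 10 µM rises) and 593 lower. Of the 2101 DMSO falls, 1353 were lower at 3 µM (64.4%, background 32.3%; 19.0% of the falls there) and 1294 at 10 µM (61.6%, background 35.0%; 16.8%). Over all 22007 genes the log2 changes in DMSO and at 3 µM correlated at Pearson r = 0.14, and at 10 µM at r = 0.13, and over the 4522 called genes at 0.33 and 0.29. Genes are not independent points, and these values describe the libraries only.

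Whether the change with time differed was tested as the time change with the drug minus that in DMSO, a test that uses the DMSO libraries at each dose. The difference was called for 10853 genes at 3 µM (49.3%) and 11883 at 10 µM (54.0%). Among the 2421 genes that rose in DMSO, the difference was called lower for 866 at 3 µM (35.8%) and 954 at 10 µM (39.4%), against 23.7 and 26.4% of all genes, and called higher for 778 (32.1%) and 811 (33.5%), against 25.6 and 27.6%. Among the 2101 genes that fell in DMSO, it was called lower for 736 at 3 µM (35.0%) and 747 at 10 µM (35.6%), and higher for 674 (32.1%) and 728 (34.7%). The genes were chosen by the DMSO value that the difference subtracts, so these shares are a description.

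Cholesterol synthesis, with 17 of 20 enzymes higher in DMSO, moved in both directions in treated cells. At 3 µM, 7 of the 20 enzymes were called higher with time and 11 lower (median log2 fold change -0.11), and at 10 µM 7 were higher and 9 lower (median -0.08). The difference from DMSO was called lower for 14 of the 20 at each dose. MSMO1 changed with time by -0.45 at 3 µM and -0.48 at 10 µM, against 0.45 in DMSO (adjusted p of the difference = 8.3e-14 and 2.1e-14). LSS changed by -0.01 at each dose, against 0.46 in DMSO. MVK, mevalonate kinase, went with a different set: its time change was 0.82 at 3 µM and 0.94 at 10 µM, against 0.40 in DMSO. Fatty acid synthesis had a median of 0.34 at each dose, beside 0.30 in DMSO, but its members did not all keep their change. Of the 16, 11 were called higher and 3 lower at 3 µM, and 10 higher and 4 lower at 10 µM. The difference from DMSO was called higher for 6 and lower for 8 at each dose. SCD rose there by 0.60 and 0.79, less than its 0.98 in DMSO (adjusted p = 6.3e-07 and 0.0025).

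Most cytoskeletal genes fell further with the drug: 24 of the 25 actin and SRF targets were called lower with time at 3 µM (median -0.75) and all 25 at 10 µM (median -0.92), and the difference from DMSO was called lower for 21 and 22 of them. ACTG2 changed by -2.18 at 3 µM and -2.46 at 10 µM, against -0.78 in DMSO, and TAGLN by -1.97 and -2.33, against -0.62. ZYX, zyxin of focal adhesions, was an exception, with -0.40 and -0.41, against -0.40 in DMSO (adjusted p of the difference = 0.96 and 0.82), which does not show that the changes were alike. CYR61 changed by -1.11 at 3 µM and -1.25 at 10 µM, against -0.77 in DMSO. Its difference from DMSO was not called at 3 µM (adjusted p = 0.14) and was called at 10 µM (0.042). CTGF changed by -0.18 and -0.14, of which the first was called, against -0.58 in DMSO. NOTCH3 fell by 0.21 and 0.31 with the drug, against its rise of 0.64 in DMSO (adjusted p of the difference = 4.4e-13 and 2.6e-14), and LGR5 by 0.15 and 0.42, against a rise of 0.56. The amino acid carrier SLC7A5 changed by 0.14 at 3 µM and 0.01 at 10 µM, against -0.53 in DMSO. Of the 22 FOXO targets, 18 were called higher and 2 lower at 3 µM and 13 higher and 5 lower at 10 µM. Their difference from DMSO went both ways: 8 were called higher and 5 lower at 3 µM, and 6 higher and 7 lower at 10 µM. Over all tested genes it was called higher for 25.6 and 27.6% and lower for 23.7 and 26.4%. SESN3 rose by 1.1 and 1.3, against 0.73 in DMSO. The 41 ribosomal proteins had 39 members called lower at each dose, with medians of -0.39 and -0.42, against -0.15 in DMSO.

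The direction of change in DMSO went with transcript length. Among 14660 tested protein-coding genes, split into 8 classes by summed exon length (GENCODE 29), the median log2 fold change was -0.084 in the shortest class, of 207 to 2275 bases, and 0.116 in the longest, from 9777 bases. The share called higher was 4.36% in the shortest class and 36.1% in the longest, and the share called lower was 21.2% and 4.2%. Both 24 h libraries lay below the genes' own DMSO mean in the shortest class, at -0.033 and -0.046, and above it in the longest, at 0.058 and 0.06, while both 6 h libraries did the reverse, at 0.054 and 0.023 and at -0.084 and -0.027. The trend was also present over these hours at 3 µM, with class medians of -0.189 in the shortest and 0.265 in the longest. A length was at hand for 79.8% of all tested genes, so the check is void over all of them, but each tested member of the lists had one. With the trend removed, the calls for sterol synthesis were 19 in place of 17, for actin and SRF targets 19 in place of 19, for FOXO targets 12 in place of 12, for ribosome biogenesis 21 in place of 18 and for ribosomal proteins, which are short, 22 in place of 26, while replication genes called lower went to 4 from the 8 given above and clock genes called higher to 3 in place of 6. Whether RNA quality or another step set this trend was not tested.

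**Figure D5:**
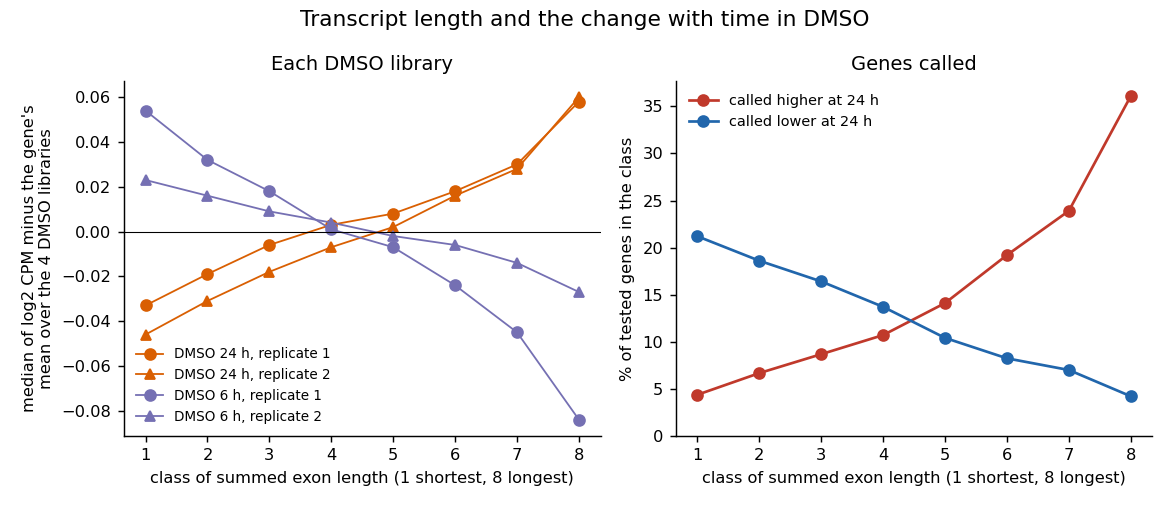
Left, the median of log2 CPM minus the gene's own mean over the 4 DMSO libraries (y axis) in 8 classes of summed exon length from shortest to longest (x axis), for each 24 h library (orange) and 6 h library (violet); right, the percent of tested genes in each class called higher (red) or lower (blue) in DMSO at 24 h. Both 24 h libraries climb and both 6 h libraries descend along the classes, and the share called higher goes with length to 36.1%.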

How the data were processed

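RNA was sequenced from 16 libraries of CAL51 cells, prepared as strand-specific poly-A libraries and read in pairs of 100 bases, per the labels' protocols. The authors deposited 1 file of raw counts of read pairs per gene symbol for each library; STAR, HTSeq, edgeR and the build hg19 (GRCh37) are named in the submitters' processing notes, while the versions, the strand setting and the annotation used were not given in the sources used here. The 5 closing rows of each file, which name no gene and held 16.94 to 20.21% of pairs, were left out.

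Counts were tested with edgeR 4.0.16 in R 4.3.3: 6 group means over all 16 libraries, TMM scaling, genes kept by filterByExpr (minimum count 10, total 15), the robust quasi-likelihood test and Benjamini-Hochberg adjustment over 22007 genes, with 0.05 as threshold. Levels are CPM after TMM scaling. Alternatives were other scalings and filters, DESeq2 1.42.0, limma-voom 3.58.1, a replicate block, the DMSO libraries alone, each library left out, and a lowess correction for transcript length (span 0.3). The fits were checked on simulated counts.

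The gene lists and the genes looked at were chosen with earlier results of these data known. Named genes are the 12 largest rises and 12 largest falls among called genes of at least 1 log2 CPM that did not overlap, up to 5 called members per list and those against it, and a short set of known genes. Added to them are the 4 largest differences in each direction at each dose, among genes called in DMSO with the same floor. Promoter sequences are RefSeq's (GRCh38.p14) and carry no coordinates of the counted genes. P-values and errors cover the spread between libraries only. Some genes that this rule selects are not reported here.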

Additional observations from a re-analysis of the deposited data

Results flagged for a closer look

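The results below stand out because the change between 24 h and 6 h differed between treated and DMSO cells by a test of the difference itself, in edgeR's fit of all libraries with Benjamini-Hochberg adjustment. The difference was called for 10853 genes at 3 µM and 11883 genes at 10 µM CC-671, and both tests use the same 4 DMSO libraries.

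The genes below were ranked only among genes called in DMSO, of at least 1 log2 CPM, leaving out small RNA and clone names. Among these, PLA2G3 had the largest negative difference at each dose, -2.24 at 3 µM and -2.29 at 10 µM on the log2 scale. It was lower with time in treated cells and higher in DMSO (adjusted p of the difference = 1.3e-11 and 4.5e-12). PLA2G3 also had the largest DMSO rise given above, which the difference subtracts, so its rank is a description. FRZB, a secreted Wnt inhibitor, had 79.1 and 76.9 CPM at 24 h and 62.9 and 58.2 CPM at 6 h in DMSO, with differences of -1.63 at 3 µM and -1.98 at 10 µM. DCHS1, a large cadherin, differed by -1.62 and -2.23, and its own call in DMSO was lost without 24 h replicate 1 (adjusted p = 0.069). CXCL14, a chemokine, differed by -1.72 at 3 µM, and its DMSO call was lost without 6 h replicate 1 (0.26) or 24 h replicate 2 (0.19). H19, an imprinted long non-coding RNA, had 3.98 and 3.76 CPM at 24 h and 2.43 and 2.28 CPM at 6 h in DMSO and differed by -2.09 at 10 µM.

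Positive differences were those of MTG1, a mitochondrial ribosome GTPase (2.03 at 3 µM and 2.25 at 10 µM), PPCDC, an enzyme of coenzyme A synthesis (1.88 and 2.15), AKNA (1.75 and 2.05), TENC1, a tensin (1.69 at 3 µM), and ARMCX4 (1.86 at 10 µM). In DMSO, PPCDC had 11.3 and 11.2 CPM at 24 h and 12.6 and 12.6 CPM at 6 h, and its call there was lost in every leave-out (adjusted p = 0.13 to 0.21) and with DESeq2 (0.055). The DMSO call of MTG1 was lost without 6 h replicate 1 (0.071) or 24 h replicate 1 (0.24), and that of AKNA without 6 h replicate 2 (0.072) or 24 h replicate 1 (0.064).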

How the results depend on the processing

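With 1 DMSO library left out, the lone library of its group being assumed to vary like the other groups, 2604 to 3579 genes were called, 1425 to 1974 of them higher and 1047 to 1605 lower, and 61 to 98 at 2-fold or more. Leaving out 1 library gave 13890 to 14182 calls at 3 µM, 14719 to 15096 at 10 µM, and 9546 to 10796 and 10708 to 11874 for the differences from DMSO. Calls at 2-fold or more were 13 with the stricter filter of 1 CPM in 2 libraries and 21 with DESeq2, against 104. Other settings gave 4258 to 5266 calls in DMSO, and no gene called in both fits changed direction. The fit with a replicate block gave 4285 calls. Of 36 correlations between same-numbered libraries 8 were over 0.1, in a range of -0.45 to 0.46. Between the DMSO times the value was 0.12 for both replicate numbers. With 2 libraries a group these deviations are mirror images and give 1 value, so whether the DMSO libraries are paired cannot be decided. The removal of the length trend, chosen after seeing the data, was fitted to the 17555 genes with a length and gave 4258 calls. Of these, 3282 were among the 4522 calls of the main fit, which also tested genes without a length. The cause of these shifts was not tested.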
